A study of Mus musculus with 14 samples.

Results

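The report concerns 31 mouse genes that encode scaffold proteins of the postsynaptic side of synapses and adhesion molecules that span the synaptic cleft. They were taken from a bulk RNA sequencing study of CARIP knockout mice by matching a fixed list of symbols to the Ensembl gene identifiers of its count table. All 31 symbols were found among the 48440 genes of that table, and all 31 passed the filter on low counts that left 24680 genes to test. The groups were CARIP-/- (KO) cerebellum with 3 libraries, KO hippocampus with 2, KO cerebral cortex with 2, and the same numbers of wild-type (WT) libraries from each region. All mice carried the C57BL/6 background. Age, sex, the structure of the CARIP allele and any further treatment were not stated in the labels. The libraries called cortex here were titled Cerebrum. Library numbers (1 to 3) are those of the titles, and cortex and hippocampus have numbers 1 and 2 in KO and 2 and 3 in WT mice. No label ties a number to a mouse, so p-values measure the spread between libraries.

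At excitatory synapses, glutamate receptors are held opposite the release site by layers of scaffold proteins. Dlg proteins (PSD-95 and its relatives) lie close to the membrane and bind receptors and adhesion molecules. Dlgap proteins link them to the Shank proteins, and Homer proteins join Shank to metabotropic glutamate receptors and to calcium channels inside the cell. Presynaptic neurexins (Nrxn) bind across the cleft to neuroligins (Nlgn) and to the leucine-rich repeat proteins of the Lrrtm family, and Slitrk proteins bind presynaptic receptor phosphatases. Gephyrin (Gphn) is the scaffold of inhibitory synapses. Most of these proteins exist as several paralogues, which are related genes of one family, so that a region can differ from another in the level of a whole family or in which paralogue it uses.

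Between 20.1 and 38.8 M reads were counted per library. Levels are given as CPM (reads per 1 M reads counted, on scaled library totals) and, where genes are compared, as CPM per kb of the gene's merged exons. Summed granule cell markers followed the labels. The 6 genes had 3325 to 4192 CPM in KO and 3180 to 5338 CPM in WT cerebellum. In the other libraries the sum was 93.8 to 177 CPM, of which Etv1 alone gave 67.8 to 107.5 CPM. Fat2 of that list had 12.5 and 7.68 CPM in KO and 12.5 and 0.59 CPM in WT hippocampus. Gabra6 had 7.49 and 4.62 CPM in KO and 8.47 and 0 CPM in WT hippocampus. Some libraries stood apart. KO cortex 2 had 825 CPM of striatal, 507 CPM of thalamic and 582 CPM of choroid plexus markers, against 111 to 130, 84.4 to 99.8 and 16.5 to 34.4 CPM in the other cortical libraries. Both cerebellar libraries numbered 2 differed from the other 4, as given beside Lrfn2 and Dlgap2. WT cerebellum 1 had 26.4 CPM of choroid plexus markers, against 629.5 to 1360 CPM in the other cerebellar libraries, and WT hippocampus 2 had 1128 CPM, against 81.4 to 131 CPM in the other hippocampal ones. WT cortex 2 had 198 CPM of meningeal markers, against 30.4 to 62.2 CPM in the other cortical libraries. The targeted gene was not found under the name CARIP in the annotation used here, so no level of it was read.

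Most of the genes were lower in cerebellum than in cortex, over both genotypes. With edgeR's quasi-likelihood test and Benjamini-Hochberg adjustment over all genes, 28 of the 31 differed between cerebellum and cortex at an adjusted p below 0.05, where 48.4% of all genes tested did. Of these, 25 were lower in cerebellum and 3 (Homer3, Lrrtm3 and Gphn) were higher, against 25.3% and 23% of all genes. At least a 2-fold difference was seen for 16 lower genes and 1 higher gene, Homer3, where 14.1% and 10.4% of all genes passed in those directions. The median log2 fold change was -1.03 over the 31 genes and 0.01 over all genes tested. Against hippocampus, 26 of the 31 differed in cerebellum, 21 lower and 5 higher (Dlg1, Homer3, Nrxn2, Nrxn3 and Lrrtm3), where 47.3% of all genes differed, 24.7% lower and 22.6% higher. The median log2 fold change there was -0.95, against 0.02 for all genes.

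Hippocampus and cortex were closer to each other. Of the 31 genes, 9 differed in hippocampus, 3 higher and 6 lower, where 12% of all genes differed, 5.49% higher and 6.48% lower. Their median log2 fold change was -0.02, and that of all genes 0.00. A 2-fold or larger difference was seen for 1 higher gene, Homer3, and 1 lower gene, Lrrtm3, where 2.76% and 2.97% of all genes passed in those directions, 5.73% in either. Without KO cortex 2 the 3 comparisons called 28 (cerebellum over cortex), 13 (hippocampus over cortex) and 29 (cerebellum over hippocampus) of the 31 genes. The same setting called 11478, 3486 and 13034 of all genes in that order, against 11941, 2956 and 11676 with all libraries. The member counts in that order were 28, 8 and 25 without WT hippocampus 2 and 27, 11 and 26 without WT cortex 2, the libraries with high choroid plexus and meningeal sums. The counts of all genes were then 11593, 1721 and 9966 without WT hippocampus 2 and 10150, 1977 and 11673 without WT cortex 2.

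These are bulk samples, in which fewer cells of a type and less RNA per cell cannot be told apart. The sum of 6 pan-neuronal markers was lowest in cerebellum, at 3939 to 4950 CPM in cerebellum, 5936 to 6707 CPM in hippocampus and 6402 to 7409 CPM in cortex. Not all 6 followed that order. Syt1 had 429 to 466 CPM in cerebellum, 1378 to 1626 in hippocampus and 1596 to 1722 in cortex, and Map2 had 848 to 1297 CPM in cerebellum, 2043 to 2361 in hippocampus and 1869 to 2564 in cortex. Snap25 had 1791 to 1994 CPM in cerebellum, 1429 to 1786 in hippocampus and 1697 to 2449 in cortex, and Rbfox3 had 278 to 420.4 CPM in cerebellum, 227 to 262 in hippocampus and 241 to 320.3 in cortex, so both were above hippocampus in cerebellum. The part of these markers in the lower cerebellar levels was not tested.

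**Figure D1:**
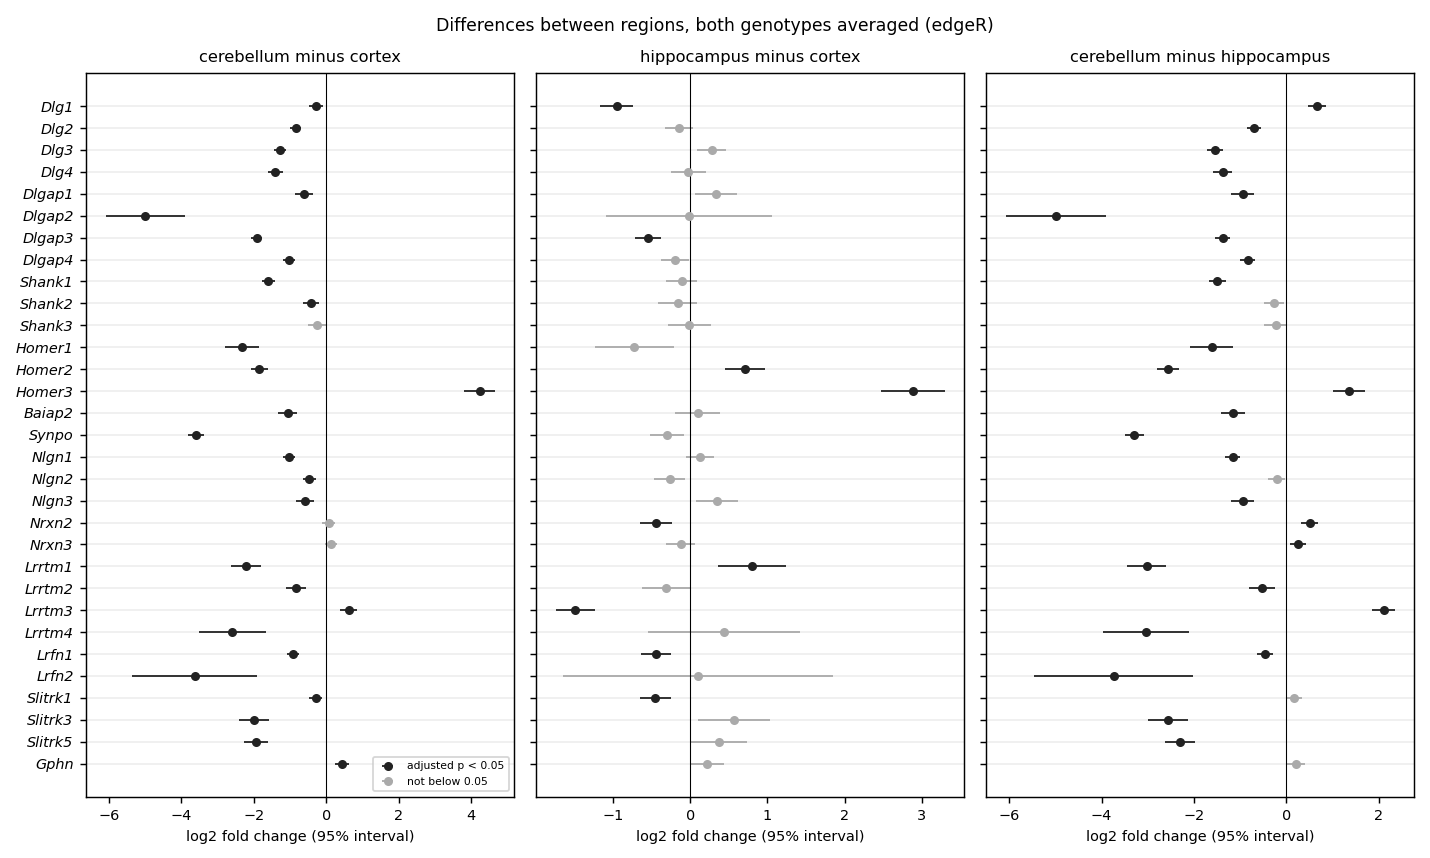
Log2 fold changes of the 31 genes (rows) for cerebellum minus cortex, hippocampus minus cortex and cerebellum minus hippocampus, averaged over both genotypes. Points are edgeR estimates with 95% intervals, black where the adjusted p is below 0.05; most points of the first and last panels lie left of 0, and Homer3 lies to the right in all 3.

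The Dlg genes, which encode the membrane-near scaffolds, were lower in cerebellum than in cortex in all 4 cases. Dlg4, the gene of PSD-95 (chromosome 11, 70016942 to 70047522, plus strand; GRCm38, as are all coordinates here), had the largest difference of the family between cerebellum and cortex. The lowest, median and highest of the 6 cerebellar libraries had 19.3, 20.4 and 24.6 CPM per kb of Dlg4. In hippocampus, KO libraries had 52.6 and 52.8 and WT libraries 58.8 and 55.7 CPM per kb, and in cortex KO libraries had 51.6 and 61.4 and WT libraries 62.8 and 47.7. No cerebellar library reached the level of any other library, and the hippocampal and cortical values overlapped. The regional difference was -1.41 ± 0.10 (SE; edgeR adjusted p = 1.66e-07) for cerebellum over cortex and -1.38 ± 0.10 (SE; edgeR adjusted p = 1.47e-07) for cerebellum over hippocampus.

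Dlg2 had 22.4, 23.5 and 26.7 CPM per kb in cerebellum (lowest, median and highest library). KO hippocampus had 39.7 and 37.1 CPM per kb and WT hippocampus 40.05 and 38.3, and KO cortex had 41.4 and 43.8 and WT cortex 44 and 42.4. Dlg2, a close relative of Dlg4, had the highest cerebellar level of the family, with a log2 fold change over cortex of -0.85 ± 0.07 (SE; edgeR adjusted p = 1.45e-06). Dlg3, known as the member of the family that is expressed early in development, had 14.3, 14.5 and 14.2 CPM per kb in KO and 14.1, 14.3 and 15.7 in WT cerebellum. In KO cortex it had 34.7 and 39.8 CPM per kb and in WT cortex 36 and 30.01, and its log2 fold change for cerebellum over cortex was -1.27 ± 0.08 (edgeR adjusted p = 8.25e-08). Over hippocampus it was -1.55 ± 0.08 (edgeR adjusted p = 1.23e-08), the largest of the family in that comparison.

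Dlg1, which also has roles at epithelial junctions, followed another order. In cerebellum the level of Dlg1 was 15.2 CPM per kb at its lowest, 19.1 at the median and 19.8 at its highest. The hippocampal values were 12.6 and 12.6 CPM per kb in KO and 9.94 and 11.8 in WT libraries, and the cortical ones 22.3 and 20.4 in KO and 23.3 and 24.7 in WT libraries. Hippocampus was the lowest region, with no overlap with either of the others. As a log2 fold change this was -0.95 ± 0.10 (SE; edgeR adjusted p = 5.33e-05) for hippocampus over cortex, 0.67 ± 0.09 (SE; edgeR adjusted p = 6.18e-05) for cerebellum over hippocampus and -0.29 ± 0.09 (SE; edgeR adjusted p = 0.0175) for cerebellum over cortex. The last of these did not pass with KO libraries alone (log2 fold change -0.165, edgeR adjusted p = 0.32). It was -0.27 without WT cortex 3, which leaves WT cortex 2 as the lone WT library of cortex. As a share of the length-scaled reads of the 4 Dlg genes, Dlg1 took 19.8% to 25.4% in cerebellum, 6.43% to 8.77% in hippocampus and 12.4% to 17% in cortex. Dlg4 took 24.6% to 32% in cerebellum, 35.9% to 38% in hippocampus and 33% to 37.8% in cortex, so its share was below that of every other library in cerebellum.

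**Figure D2:**
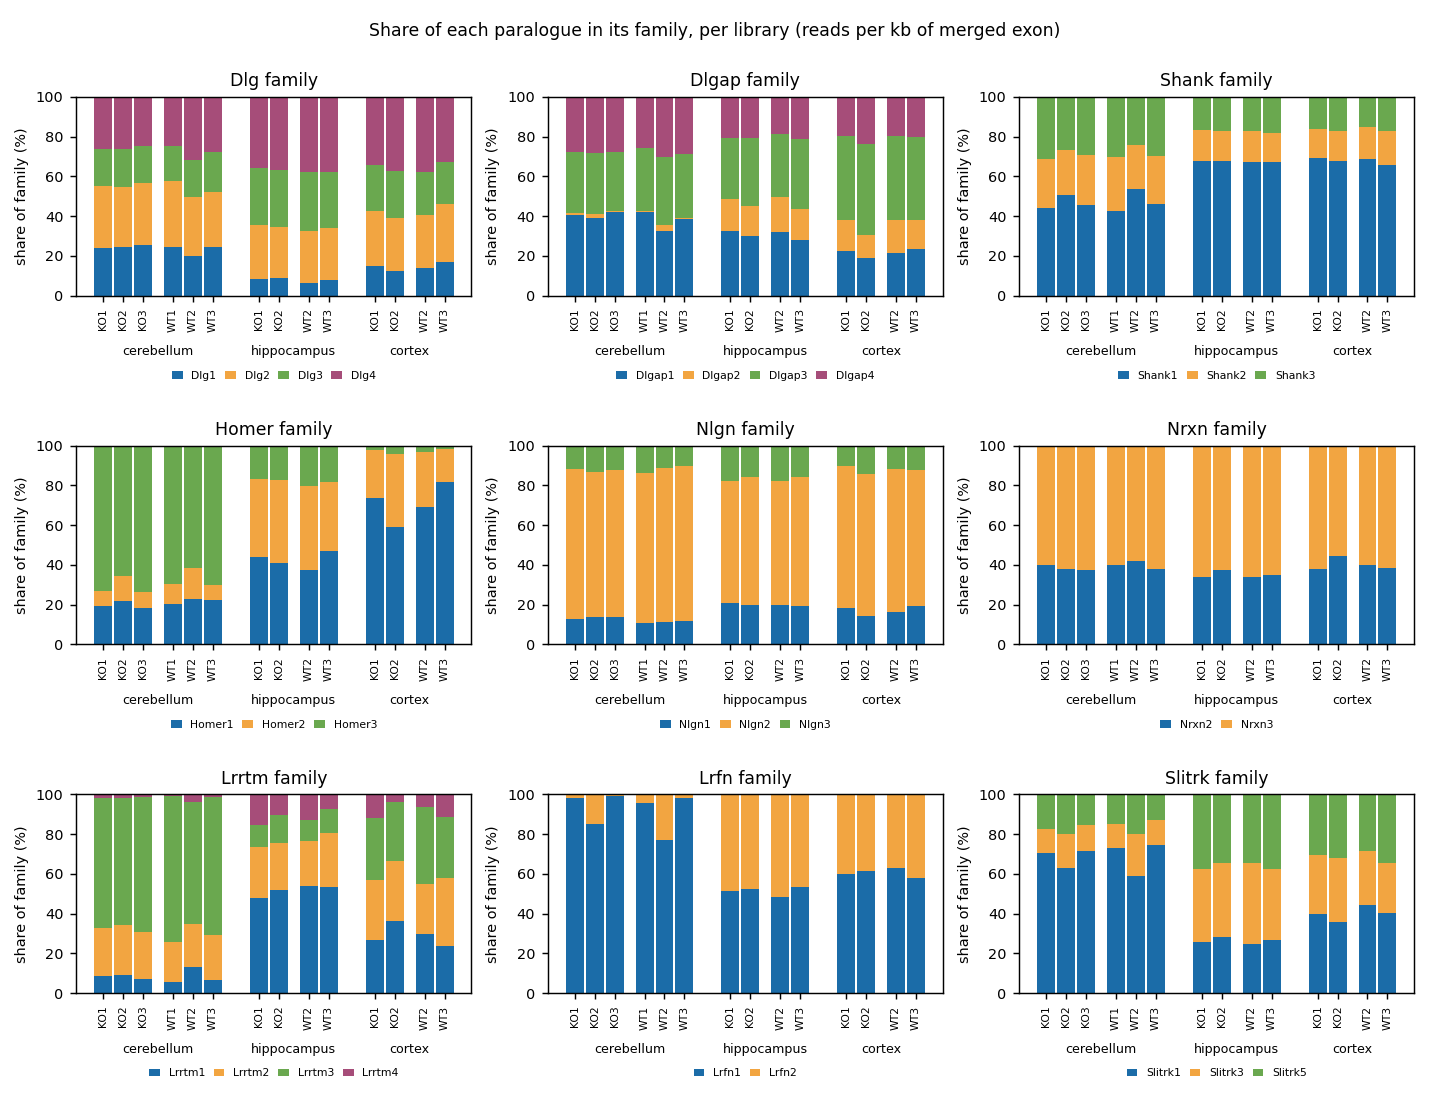
Share of each paralogue in the reads of its family members among the genes of this report, in percent, after division by merged exon length. Each bar is 1 library, grouped by region with KO left of WT. Homer3 fills most of the cerebellar Homer bars and Homer1 most of the cortical ones, and the bars of KO and WT libraries of a region resemble each other.

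Among the Dlgap genes, Dlgap2 stood out by its low cerebellar level. Dlgap2 (chromosome 8, 14095865 to 14847680, plus strand) encodes a guanylate-kinase-associated linker between Dlg and Shank. Cerebellar levels of Dlgap2 were 0.42, 0.512 and 2.22 CPM per kb (lowest, median and highest library). For Dlgap2, hippocampus gave 28.1 and 26.4 CPM per kb in KO and 32.3 and 29.2 in WT libraries, and cortex 31.1 and 21.6 in KO and 35.8 and 29.4 in WT libraries. Every hippocampal and cortical library lay well above every cerebellar one. The log2 fold change was -5.00 ± 0.49 (SE; edgeR adjusted p = 2.17e-05) for cerebellum over cortex and -4.99 ± 0.49 (SE; edgeR adjusted p = 2.01e-05) for cerebellum over hippocampus. Its share of the Dlgap reads was 0.595% to 3.28% in cerebellum, 15.2% to 17.7% in hippocampus and 11.7% to 16.6% in cortex.

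Dlgap3, a linker known for its role in striatal synapses, was the leading paralogue of cortex. The lowest, median and highest of the 6 cerebellar libraries had 20.8, 23.3 and 24.5 CPM per kb of Dlgap3. Levels of Dlgap3 were 54.9 and 59 CPM per kb in KO and 58.4 and 64.3 in WT hippocampus, and 85.2 and 84.2 in KO and 91.1 and 84.6 in WT cortex. The 3 regions did not overlap. Log2 fold changes were -1.93 ± 0.07 (SE; edgeR adjusted p = 1.53e-09) for cerebellum over cortex and -0.55 ± 0.08 (SE; edgeR adjusted p = 0.000634) for hippocampus over cortex.

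Dlgap1 had 21.9, 29.6 and 31.4 CPM per kb in cerebellum (lowest, median and highest library). In hippocampus, KO libraries had 57.5 and 51.8 and WT libraries 58 and 50.9 CPM per kb, and in cortex KO libraries had 45.2 and 34.8 and WT libraries 46.6 and 47.2. Dlgap1 had the highest cerebellar level of the family, and its log2 fold change for cerebellum over cortex was -0.61 ± 0.11 (SE; edgeR adjusted p = 0.000637). KO cortex 2 lay below the other 3 cortical libraries. Dlgap4 ranged over 19.1 to 22.2 CPM per kb in cerebellum, 33.9 to 39 in hippocampus and 39.8 to 44 in cortex, with a log2 fold change of -1.04 ± 0.08 (SE; edgeR adjusted p = 3.23e-07) for cerebellum over cortex. Which Dlgap gene leads in hippocampus and cortex depended on the length used: Dlgap3 led with merged exons and Dlgap1 with the longest transcript or raw reads.

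The Shank genes encode the large scaffolds that connect the Dlgap layer to Homer and actin. Shank1 (chromosome 7, 44310253 to 44360572, plus strand) was the most abundant of them in each library and the one with the largest regional difference. In cerebellum the level of Shank1 was 48.8 CPM per kb at its lowest, 51.3 at the median and 57.3 at its highest. KO hippocampus had 149 and 147 CPM per kb and WT hippocampus 140.1 and 152, and KO cortex had 171 and 149.5 and WT cortex 172 and 142. The cerebellar libraries lay below all others, and the log2 fold change was -1.60 ± 0.08 (SE; edgeR adjusted p = 2.24e-08) for cerebellum over cortex and -1.49 ± 0.08 (SE; edgeR adjusted p = 2.94e-08) for cerebellum over hippocampus.

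Shank2 and Shank3 varied less. Shank2 ranged over 22.2 to 30.7 CPM per kb in cerebellum, 31.5 to 33.6 in hippocampus and 33 to 40.3 in cortex, with a log2 fold change of -0.43 ± 0.10 (SE; edgeR adjusted p = 0.0043) for cerebellum over cortex and -0.27 ± 0.10 (SE; edgeR adjusted p = 0.0503) for cerebellum over hippocampus. Cerebellar levels of Shank3 were 24.6, 34 and 37.4 CPM per kb (lowest, median and highest library). The hippocampal values were 37 and 37.6 CPM per kb in KO and 36.1 and 40.6 in WT libraries, and the cortical ones 39.4 and 38.3 in KO and 38.5 and 36.5 in WT libraries. The ranges of Shank3 overlapped in all 3 pairs of regions. Its log2 fold change for cerebellum over cortex was -0.25 with a 95% interval of -0.50 to 0.01 (edgeR adjusted p = 0.0998). Shank1 therefore took 42.7% to 53.8% of the length-scaled Shank reads in cerebellum, 67.3% to 67.8% in hippocampus and 65.8% to 69.2% in cortex.

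Each Homer gene was highest in another region, Homer3 in cerebellum, Homer2 in hippocampus and Homer1, by its mean, in cortex. Homer3 (chromosome 8, 70282827 to 70294361, plus strand), which encodes a long Homer form known from Purkinje cells, had 21.9, 16 and 21.7 CPM per kb in KO and 21.9, 13 and 22.7 in WT cerebellum. In hippocampus it had 7.63 and 6.96 CPM per kb in KO and 8.02 and 7.89 in WT libraries, and in cortex 0.839 and 1.14 in KO and 1.12 and 1.02 in WT libraries. The regions did not overlap, with cerebellum highest and cortex lowest, and within cerebellum the libraries numbered 2 were the lowest of each genotype. In the test over all libraries, the log2 fold change was 4.24 ± 0.19 (SE; edgeR adjusted p = 7.62e-09) for cerebellum over cortex, 1.36 ± 0.16 (SE; edgeR adjusted p = 2.15e-05) for cerebellum over hippocampus and 2.88 ± 0.19 (SE; edgeR adjusted p = 2.05e-06) for hippocampus over cortex. Exons of Ddx49 on the opposite strand cover 25.4% of the Homer3 exonic bases, and whether counting used strand is not given in the sources used here.

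Homer1 (chromosome 13, 93299635 to 93405129, plus strand) is the gene of both the long Homer1 forms and the short, activity-induced form Homer1a, which counts per gene do not separate. It had 5.74, 5.28 and 5.36 CPM per kb in KO and 6.42, 4.76 and 7.3 in WT cerebellum. In hippocampus its values were 19.7 and 16.2 CPM per kb in KO and 14.8 and 20.2 in WT libraries, and in cortex 27.9 and 16.4 in KO and 25.2 and 51.9 in WT libraries. WT cortex 3 was the highest library, and hippocampus and cortex overlapped. Cerebellum was below both, with log2 fold changes of -2.33 ± 0.21 (SE; edgeR adjusted p = 4.97e-06) over cortex and -1.61 ± 0.21 (SE; edgeR adjusted p = 7.89e-05) over hippocampus, and hippocampus over cortex did not pass (log2 fold change -0.72 ± 0.24, edgeR adjusted p = 0.0736).

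Homer2, a long form as well, was highest in hippocampus, at 14.8 to 17.6 CPM per kb against 2.32 to 3.33 in cerebellum and 9.11 to 10.5 in cortex. No pair of regions overlapped. On the log2 scale the difference was 0.71 ± 0.12 (SE; edgeR adjusted p = 0.00167) for hippocampus over cortex and -2.57 ± 0.11 (SE; edgeR adjusted p = 3.09e-09) for cerebellum over hippocampus. With WT libraries alone the first of these did not pass (0.605, edgeR adjusted p = 0.0572). As shares of the length-scaled Homer reads, Homer3 took 61.6% to 73.7% in cerebellum, 17% to 20.2% in hippocampus and 1.6% to 4.11% in cortex. Homer1 took 18.2% to 22.6% in cerebellum, 37.3% to 47.1% in hippocampus and 59.1% to 81.8% in cortex. On raw reads, not divided by length, Homer1 instead of Homer3 led in cerebellum, since the merged exons of Homer3 span 3440 bases and those of Homer1 11976.

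**Figure D3:**
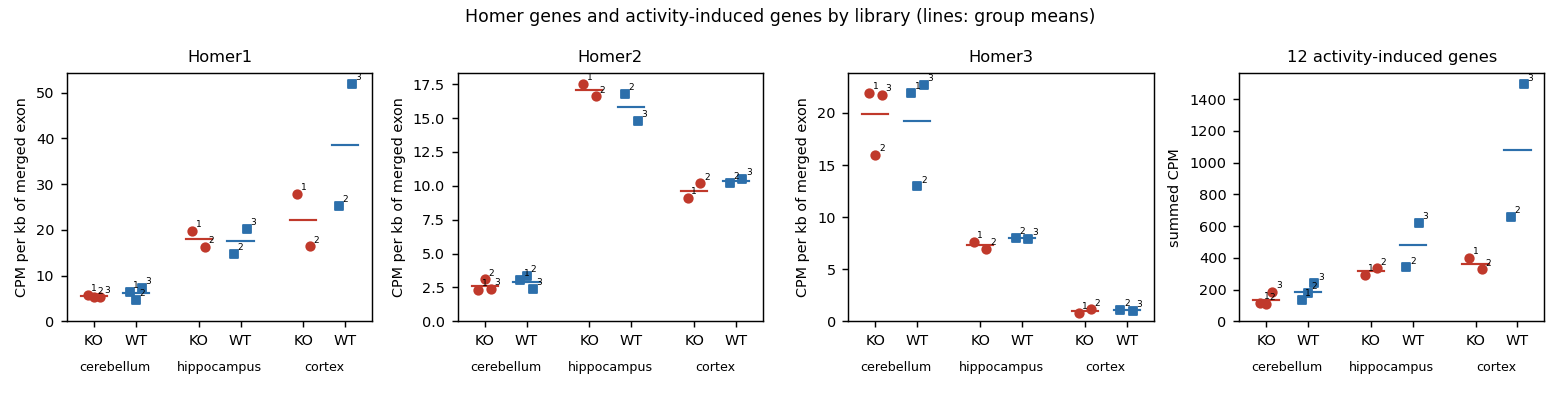
CPM per kb of merged exon of Homer1, Homer2 and Homer3, and the summed CPM of 12 activity-induced genes, by region, with KO left of WT. Points are libraries with their numbers and lines are group means; Homer3 is highest in cerebellum, Homer2 in hippocampus, and WT cortex 3 is the highest library of both Homer1 and the activity-induced sum.

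Because the 3 Homer genes differ in the region where each is highest, the RefSeq promoter windows of each (300 bases, 250 before and 50 after the annotated start, GRCm38.p6) are shown. Capitals mark TGACGT, the core of the cAMP response element, searched on both strands. The windows lie at chr13:93303507-93303806 (plus strand) for Homer1, chr7:81706876-81707175 (minus strand) for Homer2 and chr8:70282749-70283048 (plus strand) for Homer3, each written 5′ to 3′ in the gene's direction.
Homer1: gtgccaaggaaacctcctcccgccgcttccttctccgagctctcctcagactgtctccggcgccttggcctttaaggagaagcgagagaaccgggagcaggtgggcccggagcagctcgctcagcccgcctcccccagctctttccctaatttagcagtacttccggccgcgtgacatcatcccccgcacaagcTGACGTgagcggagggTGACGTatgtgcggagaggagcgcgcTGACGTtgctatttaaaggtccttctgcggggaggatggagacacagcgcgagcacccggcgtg
Homer2: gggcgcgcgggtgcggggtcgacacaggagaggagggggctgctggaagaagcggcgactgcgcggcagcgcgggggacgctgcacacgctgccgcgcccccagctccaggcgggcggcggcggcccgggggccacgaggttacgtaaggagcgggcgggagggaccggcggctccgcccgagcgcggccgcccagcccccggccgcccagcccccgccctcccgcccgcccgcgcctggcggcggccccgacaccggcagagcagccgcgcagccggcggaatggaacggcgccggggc
Homer3: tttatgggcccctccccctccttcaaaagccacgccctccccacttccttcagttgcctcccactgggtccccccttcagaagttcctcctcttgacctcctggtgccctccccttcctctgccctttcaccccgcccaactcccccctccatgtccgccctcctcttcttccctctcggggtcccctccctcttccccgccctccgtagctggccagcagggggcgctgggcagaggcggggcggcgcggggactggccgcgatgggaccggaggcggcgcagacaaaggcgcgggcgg
The Homer1 window held 3 matches, which begin at positions -56, -40 and -14 from the start, and none overlaps another. The Homer2 and Homer3 windows held 0. At least 1 match was found in 7.51% of all 32851 promoter windows and 3 or more in 0.201%. For 22 of the 31 genes 37 windows were searched, with a second window for Homer1 and for Homer2. The Homer1 window shown was the only one of these 37 with a match. Synpo and Lrrtm2 were left out of the search, and nothing is said of windows of genes that were not searched. The shares over all windows were not limited in this way. The letters of a GC box, GGGCGG, were also searched on either strand. They occurred 0 times in the Homer1 window, 8 times in that of Homer2 and 5 times in that of Homer3. At least 1 GC box was found in 35.7% of all windows and 3 or more in 10.7%. A match is a description of the letters and not a site that was measured.

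Of the remaining excitatory scaffold genes, Synpo had the larger regional difference. Synpo encodes synaptopodin, an actin-binding protein of the spine apparatus, an organelle that Purkinje cell spines are known to lack. The lowest, median and highest of the 6 cerebellar libraries had 1.55, 1.91 and 2.2 CPM per kb of Synpo. For Synpo, hippocampus gave 17.9 and 18 CPM per kb in KO and 18 and 20.1 in WT libraries, and cortex 22.8 and 19.6 in KO and 23.9 and 25.2 in WT libraries. Cerebellar values lay far below all others, and the log2 fold change was -3.59 ± 0.10 (SE; edgeR adjusted p = 2.38e-10) for cerebellum over cortex and -3.29 ± 0.10 (SE; edgeR adjusted p = 2.42e-10) for cerebellum over hippocampus. Baiap2, which encodes an actin-linked adaptor that bends membranes, had 26.7, 19.3 and 25.6 CPM per kb in KO and 24.1, 17.9 and 27.9 in WT cerebellum. In hippocampus it ranged over 49.8 to 56 and in cortex over 46.6 to 52.4 CPM per kb. Its log2 fold change was -1.06 ± 0.12 (SE; edgeR adjusted p = 1.65e-05) for cerebellum over cortex.

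Gephyrin went the other way. Gphn had 27, 28 and 31.7 CPM per kb in cerebellum (lowest, median and highest library). Levels of Gphn were 25.2 and 24.6 CPM per kb in KO and 25.4 and 23.1 in WT hippocampus, and 19.4 and 24.2 in KO and 22.3 and 18.5 in WT cortex. Gphn (chromosome 12, 78226379 to 78684772, plus strand) was higher in cerebellum than in cortex without overlap, with a log2 fold change of 0.43 ± 0.09 (SE; edgeR adjusted p = 0.00164), and its difference between cerebellum and hippocampus did not pass (0.21 ± 0.09, edgeR adjusted p = 0.0665).

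Neuroligins are the postsynaptic partners of neurexins. Nlgn2, the neuroligin of inhibitory synapses, was the most abundant of the 3 in each region. In cerebellum the level of Nlgn2 was 34.1 CPM per kb at its lowest, 36.7 at the median and 42.9 at its highest. In hippocampus, KO libraries had 39.7 and 44.2 and WT libraries 42.8 and 47.3 CPM per kb, and in cortex KO libraries had 49.8 and 58.3 and WT libraries 53.9 and 47.2. It was lower in cerebellum than in cortex, with a log2 fold change of -0.47 ± 0.08 (SE; edgeR adjusted p = 0.000462), and cerebellum and hippocampus overlapped. Nlgn1, known from excitatory synapses, had the largest cerebellar difference of the family. Cerebellar levels of Nlgn1 were 5.21, 6.31 and 6.48 CPM per kb (lowest, median and highest library). KO hippocampus had 13.6 and 13.4 CPM per kb and WT hippocampus 13.6 and 13.9, and KO cortex had 12.9 and 11.6 and WT cortex 12.1 and 13.4. Its log2 fold change was -1.03 ± 0.08 (SE; edgeR adjusted p = 3.11e-07) for cerebellum over cortex. Nlgn3 ranged over 5.5 to 6.66 CPM per kb in cerebellum, 10.6 to 12.4 in hippocampus and 7.3 to 11.6 in cortex (log2 fold change for cerebellum over cortex -0.60 ± 0.11, edgeR adjusted p = 0.000845). Another annotated gene, Gm21986, shares 41.2% of the Nlgn3 exonic bases on the same strand, so the Nlgn3 counts are uncertain. For Nlgn1 the overlap is 9.16%, with A830092H15Rik on the opposite strand.

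The neurexin genes Nrxn2 and Nrxn3, whose products are the presynaptic partners, had the smallest log2 fold changes of the adhesion genes between cerebellum and cortex. The lowest, median and highest of the 6 cerebellar libraries had 42.8, 47 and 52.8 CPM per kb of Nrxn3. The hippocampal values were 38.3 and 37 CPM per kb in KO and 41.6 and 41.3 in WT libraries, and the cortical ones 43.2 and 40.3 in KO and 45 and 43.7 in WT libraries. Nrxn2 had 26.2, 30.3 and 34.9 CPM per kb in cerebellum (lowest, median and highest library). For Nrxn2, hippocampus gave 19.8 and 22.1 CPM per kb in KO and 21.3 and 22 in WT libraries, and cortex 26.4 and 32.5 in KO and 29.8 and 27 in WT libraries. Cerebellum and cortex overlapped for both. For cerebellum over cortex, the log2 fold change was 0.13 (95% interval -0.04 to 0.30) for Nrxn3 and 0.06 (95% interval -0.12 to 0.25) for Nrxn2. Hippocampus was lowest for Nrxn2, with a log2 fold change of -0.44 ± 0.09 (SE; edgeR adjusted p = 0.00808) over cortex, and the call did not hold without KO hippocampus 1 (-0.41, adjusted p = 0.0503). Nrxn2 was higher in cerebellum than in hippocampus, with 0.51 ± 0.09 (SE; edgeR adjusted p = 0.000387) on the log2 scale, and so was Nrxn3, by 0.26 ± 0.08 (SE; edgeR adjusted p = 0.0177). The Nrxn3 call did not hold without KO hippocampus 2 (0.24, adjusted p = 0.0702), without WT hippocampus 2 (0.26, adjusted p = 0.0519) or with the replicate number as a block (0.20, adjusted p = 0.115).

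Lrrtm genes encode postsynaptic leucine-rich repeat proteins of excitatory synapses, and the leading member in hippocampus was not that of cerebellum. Lrrtm3 (chromosome 10, 63928472 to 64090277, minus strand) led in cerebellum. In cerebellum the level of Lrrtm3 was 20.6 CPM per kb at its lowest, 23 at the median and 30.4 at its highest. Levels of Lrrtm3 were 5.48 and 6.91 CPM per kb in KO and 4.57 and 5.31 in WT hippocampus, and 14.1 and 15.2 in KO and 16.3 and 16.4 in WT cortex. The regions did not overlap, in the order cerebellum, cortex, hippocampus. The log2 fold change was 0.62 ± 0.11 (SE; edgeR adjusted p = 0.000355) for cerebellum over cortex, 2.11 ± 0.11 (SE; edgeR adjusted p = 1.83e-08) for cerebellum over hippocampus and -1.49 ± 0.12 (SE; edgeR adjusted p = 6.81e-06) for hippocampus over cortex.

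Lrrtm1 (chromosome 6, 77242689 to 77257791, plus strand) showed the reverse order and led in hippocampus. Cerebellar levels of Lrrtm1 were 2.24, 2.72 and 4.63 CPM per kb (lowest, median and highest library). In hippocampus, KO libraries had 24.4 and 24.9 and WT libraries 23.6 and 23.6 CPM per kb, and in cortex KO libraries had 12.2 and 18.2 and WT libraries 12.5 and 12.8. As a log2 fold change this was -2.22 ± 0.19 (SE; edgeR adjusted p = 1.44e-06) for cerebellum over cortex and -3.02 ± 0.19 (SE; edgeR adjusted p = 1.04e-07) for cerebellum over hippocampus. Between hippocampus and cortex it was 0.80 ± 0.20 (SE; edgeR adjusted p = 0.0231). This call was lost on leaving out any 1 hippocampal library, KO cortex 1, WT cortex 2 or WT cortex 3, with log2 fold changes of 0.67 to 0.80 and adjusted p-values of 0.0579 to 0.0825. KO cortex 2 was the highest of the cortical libraries for Lrrtm1, and it is the library with striatal and thalamic markers; their part in its Lrrtm1 level was not tested.

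Lrrtm4 had 0.576, 0.641 and 0.487 CPM per kb in KO and 0.438, 1.3 and 0.498 in WT cerebellum. In hippocampus it had 7.86 and 4.98 CPM per kb in KO and 5.7 and 3.23 in WT libraries, and in cortex 5.49 and 1.81 in KO and 2.62 and 6.02 in WT libraries, a wide spread within each group. Its log2 fold change was -2.60 ± 0.42 (SE; edgeR adjusted p = 0.000514) for cerebellum over cortex, and exons of Gm4409 on the opposite strand cover 25.1% of its exonic bases. Lrrtm2 ranged over 7.74 to 8.64 CPM per kb in cerebellum, 9.997 to 13.1 in hippocampus and 10.7 to 18.3 in cortex, with -0.84 ± 0.13 (SE; edgeR adjusted p = 0.000176) on the log2 scale for cerebellum over cortex. Shares of the length-scaled Lrrtm reads were 61.6% to 73% for Lrrtm3 in cerebellum, 10.4% to 14.4% in hippocampus and 30.1% to 38.8% in cortex. Those of Lrrtm1 were 5.39% to 12.9% in cerebellum, 48% to 53.8% in hippocampus and 23.9% to 36% in cortex. In cortex the mean shares of Lrrtm3, Lrrtm2 and Lrrtm1 were 32.7%, 29.9% and 29.1%, and Lrrtm2 led there on raw reads.

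Lrfn1 and Lrfn2 encode adhesion proteins that bind Dlg4. Lrfn1 was detected in all regions. The lowest, median and highest of the 6 cerebellar libraries had 6.27, 7.06 and 7.97 CPM per kb of Lrfn1. KO hippocampus had 9.67 and 10.3 CPM per kb and WT hippocampus 8.9 and 9.96, and KO cortex had 13.2 and 14.2 and WT cortex 13.2 and 12.2. Its 3 regions did not overlap, and the log2 fold change was -0.91 ± 0.08 (SE; edgeR adjusted p = 1.39e-06) for cerebellum over cortex and -0.45 ± 0.09 (SE; edgeR adjusted p = 0.0051) for hippocampus over cortex. This last call did not hold with WT libraries alone (edgeR adjusted p = 0.0661) or KO libraries alone (edgeR adjusted p = 0.0641). Lrfn2 (chromosome 17, 48932379 to 49097588, plus strand) had 0.138, 1.2 and 0.0566 CPM per kb in KO and 0.317, 2.35 and 0.135 in WT cerebellum. In hippocampus it had 9.09 and 9.41 CPM per kb in KO and 9.43 and 8.72 in WT libraries, and in cortex 8.75 and 8.85 in KO and 7.78 and 8.88 in WT libraries. Tested by edgeR, the log2 fold change was -3.64 ± 0.77 (SE; edgeR adjusted p = 0.0033) for cerebellum over cortex and -3.74 ± 0.77 (SE; edgeR adjusted p = 0.00291) for cerebellum over hippocampus. Lrfn1 thus took 77.2% to 99.1% of the length-scaled reads of the pair in cerebellum, 48.6% to 53.3% in hippocampus and 57.9% to 63% in cortex.

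The cerebellar level of Lrfn2 rested on few reads, and 2 libraries held most of them. KO cerebellum 2 had 119 reads and WT cerebellum 2 had 221, against 4 to 23 in the other 4. Dlgap2 had 255 and 400 reads in these 2 libraries, against 57 to 77. In the same libraries the cortical layer genes Rasgrf2 and Lamp5 had 39.3 and 35.8 CPM (KO) and 81.2 and 50 CPM (WT). The other 4 had 2.96 to 5.88 CPM of Rasgrf2 and 0.662 to 1.28 CPM of Lamp5. Tbr1, a further gene of the same marker list, had 1.84 CPM in KO cerebellum 2 and 0.819 CPM in WT cerebellum 2, against 1.01 to 1.95 CPM in the others. Neurod6 was likewise no higher in these 2 libraries. The summed level of that list of 6 genes, all of which had reads in each cerebellar library, was 46.3 to 127 CPM in KO and 41.8 to 187 CPM in WT cerebellum. Markers of other lists stood apart in these libraries too. Slc17a6, the glutamate transporter gene of the thalamic list, had 60.7 CPM in KO 2 and 115 CPM in WT 2, against 7.94 to 13.5 CPM in the others. The neurofilament gene Nefl had 285 CPM in KO 2 and 358 CPM in WT 2, against 79.3 to 117 CPM. The 8 oligodendrocyte markers summed to 4298 CPM in KO 2 and 8932 CPM in WT 2, against 2258 to 3268 CPM. The part of these genes in the Lrfn2 and Dlgap2 levels was not tested. Without both libraries, the log2 fold change for cerebellum over cortex was -5.83 for Lrfn2 and -5.93 for Dlgap2, and 28 of the 31 genes were again called.

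**Figure D4:**
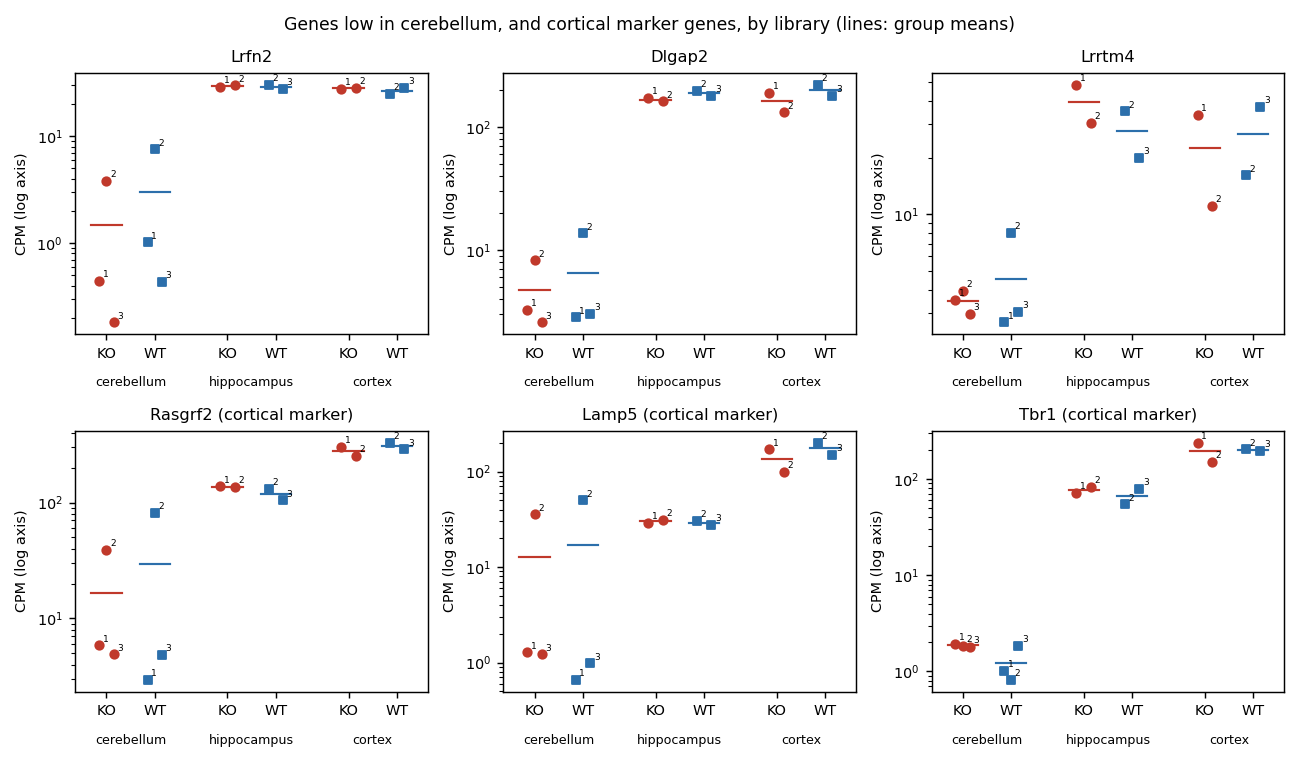
CPM on a log axis of Lrfn2, Dlgap2 and Lrrtm4, and of the cortical marker genes Rasgrf2, Lamp5 and Tbr1, by region, with KO left of WT. Points are libraries with their numbers and lines are group means; the cerebellar libraries numbered 2 lie above the others for Lrfn2, Dlgap2, Lrrtm4, Rasgrf2 and Lamp5 but not for Tbr1.

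Slitrk genes encode adhesion proteins that bind presynaptic receptor phosphatases. Of Slitrk1, Slitrk3 and Slitrk5, the members of this family among the genes of this report, Slitrk1 led in cerebellum and cortex. Slitrk1 had 20.3, 22.5 and 26.5 CPM per kb in cerebellum (lowest, median and highest library). The hippocampal values were 20.7 and 21.3 CPM per kb in KO and 20.1 and 18.9 in WT libraries, and the cortical ones 27.8 and 25 in KO and 32.3 and 25.8 in WT libraries. Cerebellum overlapped with both other regions. Its log2 fold change was -0.45 ± 0.09 (SE; edgeR adjusted p = 0.00618) for hippocampus over cortex and -0.28 ± 0.08 (SE; edgeR adjusted p = 0.013) for cerebellum over cortex, and this last call did not hold without WT cortex 2 (-0.19, adjusted p = 0.0892) or without both cerebellar libraries numbered 2 (-0.24, adjusted p = 0.0511). With KO libraries alone the Slitrk1 call for hippocampus over cortex did not hold either (-0.327, edgeR adjusted p = 0.215). Slitrk3, known from inhibitory synapses, had the largest difference of the family. In cerebellum the level of Slitrk3 was 3.8 CPM per kb at its lowest, 4.2 at the median and 8.14 at its highest. For Slitrk3, hippocampus gave 30.3 and 27.7 CPM per kb in KO and 33.6 and 25.5 in WT libraries, and cortex 20.7 and 22.3 in KO and 19.98 and 16.4 in WT libraries. Its log2 fold change was -2.0 ± 0.19 (SE; edgeR adjusted p = 6.14e-06) for cerebellum over cortex and -2.56 ± 0.20 (SE; edgeR adjusted p = 7.34e-07) for cerebellum over hippocampus. Slitrk5 ranged over 3.98 to 7.81 CPM per kb in cerebellum, 25.9 to 30.4 in hippocampus and 20.9 to 22.2 in cortex (log2 fold change for cerebellum over cortex -1.93 ± 0.15, edgeR adjusted p = 6.61e-07). Of the length-scaled reads of Slitrk1, Slitrk3 and Slitrk5 together, Slitrk1 took 59% to 74.6% in cerebellum, 24.5% to 28.5% in hippocampus and 35.9% to 44.2% in cortex. Slitrk2 and Slitrk4 are not in these shares. In cerebellum Slitrk2 had 926 to 1671 reads and Slitrk4 1439 to 2134. Both were above Slitrk3 and Slitrk5 in each cerebellar library.

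A list of 66 other postsynaptic and adhesion genes was read beside these. Of them, 53 differed between cerebellum and cortex (8 higher, 45 lower), 25 between hippocampus and cortex (10 higher, 15 lower) and 48 between cerebellum and hippocampus (10 higher, 38 lower), where 48.4%, 12% and 47.3% of all genes differed. Their median log2 fold changes were -0.85, -0.11 and -0.86. Among the highest in cerebellum over cortex were the cerebellin genes Cbln3 (10.42 ± 0.85 on the log2 scale, SE) and Cbln1 (5.95 ± 0.50), which encode secreted synaptic organizers of granule cells. Against hippocampus Cbln3 was higher by 7.39 ± 0.71 and Cbln1 by 6.19 ± 0.51 on the log2 scale. Cbln1 had 441, 368 and 438 CPM in KO and 557, 361 and 460.4 CPM in WT cerebellum, against 2.67 to 18.3 CPM in all other libraries.

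Lowest in cerebellum relative to cortex were the secreted pentraxin gene Nptx2 (-4.88 ± 0.54 on the log2 scale, SE), Kalrn (-3.94 ± 0.16), which encodes a signalling protein of dendritic spines, and Cbln2 (-3.47 ± 1.13). Cbln2 had 0.265, 6.1 and 0.0906 CPM in KO and 0, 13.7 and 0.236 CPM in WT cerebellum, again highest in the libraries numbered 2. Relative to hippocampus, C1ql2 (-6.04 ± 0.70), Nptx2 (-4.30 ± 0.53) and Epha4 (-4.15 ± 0.15) were lowest in cerebellum. In hippocampus over cortex, C1ql2, a complement-related synaptic organizer known from mossy fibres, was higher by 3.73 ± 0.72, Cbln3 by 3.03 ± 0.77 and Tanc1 by 2.24 ± 0.13, and Grip2 (-1.40 ± 0.31), Igsf9b (-1.38 ± 0.24) and Flrt1 (-1.23 ± 0.11) were lower. Cbln3 in hippocampus had 7.62 and 5.06 CPM in KO and 7 and 0.315 CPM in WT libraries, so WT hippocampus 3 was within the cortical range of 0.0761 to 0.920 CPM. Cbln3 is also on the granule cell marker list, and Fat2 and Gabra6 of that list were lowest in the same hippocampal library. The part of granule cell RNA in the hippocampal Cbln3 level was not tested.

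Genotype made no difference that passed the test for any of the 31 genes. The comparison of KO with WT mice called 0 of 31 in cerebellum, 0 in hippocampus and 0 in cortex with edgeR, where 0% of all genes were called in each region. At an unadjusted p below 0.05, cerebellum had 0 of the 31 genes and 785 of all genes, hippocampus 0 and 472, and cortex 1 (Homer1) and 1825. With DESeq2, 0 of the 31 were called in each region, and of all genes 2 in cerebellum, 2 in hippocampus and 34 in cortex. Without KO cortex 1, which leaves KO cortex 2 as the lone KO library of cortex, 3005 of all genes were called in cortex, and still 0 of the 31. The median log2 fold change of the 31 was -0.07 in cerebellum, 0.005 in hippocampus and -0.02 in cortex. Over all genes it was -0.01, -0.001 and 0.02 in that order. Log2 fold changes were above 0 for 6, 16 and 14 of the 31 genes in the same order. Of all 24680 genes tested, 11749, 12229 and 12841 were above 0.

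The intervals say how large a difference these libraries could have held. The 95% interval of the log2 fold change lay within 1 in either direction for 28 of the 31 genes in cerebellum, 28 in hippocampus and 27 in cortex, and within 0.5 for 25, 20 and 18. Widest were the intervals of Lrfn2, Dlgap2 and Lrrtm4, in all 3 regions. The fit gives each gene 1 estimate of spread over all regions, so a wide spread in any region enters a gene's intervals in all 3. Lrfn2 and Dlgap2 spread widely in cerebellum, and Lrrtm4 in hippocampus and cortex as well. For Dlg4 the interval was -0.42 to 0.11 in cerebellum, -0.44 to 0.21 in hippocampus and -0.29 to 0.36 in cortex. For Shank3 it was -0.33 to 0.31, -0.44 to 0.35 and -0.35 to 0.44 in the same order, and for Gphn -0.28 to 0.21, -0.27 to 0.34 and -0.20 to 0.40.

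**Figure D5:**
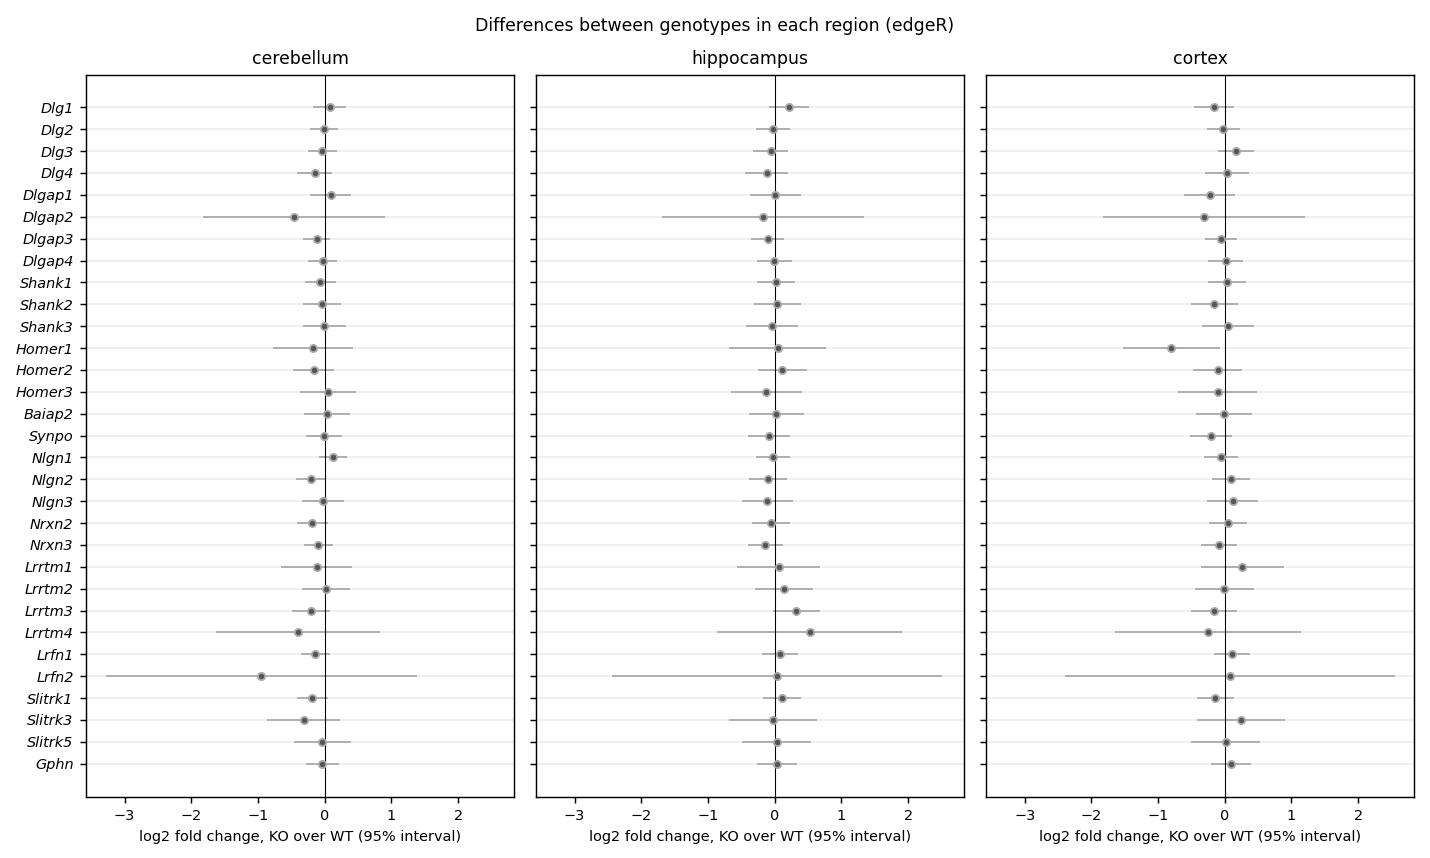
Log2 fold changes of KO over WT for the 31 genes (rows) in cerebellum, hippocampus and cortex. Points are edgeR estimates with 95% intervals; the interval includes 0 for 31 genes in cerebellum, 31 in hippocampus and 30 in cortex, the exception being Homer1.

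In cerebellum the smallest p-values belonged to Nlgn2, Slitrk1 and Nrxn2. Nlgn2 had 36.8, 34.1 and 34.3 CPM per kb in KO and 36.6, 41.8 and 42.9 in WT cerebellum, with a log2 fold change of -0.21 ± 0.11 (edgeR unadjusted p = 0.0757, adjusted p = 1). Slitrk1 had 21.9, 20.3 and 21.7 CPM per kb in KO and 26.5, 23 and 23.2 in WT cerebellum, without overlap, and a log2 fold change of -0.19 ± 0.11 (edgeR adjusted p = 1). Nrxn2 had 29.9, 26.2 and 28.8 CPM per kb in KO and 34.9, 31.1 and 30.7 in WT cerebellum, also without overlap, and a log2 fold change of -0.19 ± 0.11 (edgeR adjusted p = 1). KO and WT libraries did not overlap for 3 of the 31 genes, all lower in KO (Nrxn2, Lrfn1 and Slitrk1), where 9.3% of all genes did not overlap, 4.52% with KO lower and 4.78% with KO higher.

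Pairing the cerebellar libraries by number, which correlations between libraries did not bear out for numbers 1 and 3, left the 31 genes uncalled. That fit, with the replicate number as a block, called 104 of all genes (0.421%; 0.0729% higher and 0.348% lower in KO) and 0 of the 31. Its smallest p among them was that of Lrfn2, with a log2 fold change of -1.07 ± 0.30 (edgeR unadjusted p = 0.00268, adjusted p = 0.2). Nlgn2, Slitrk1, Lrrtm3, Nrxn2 and Slitrk3 also had an unadjusted edgeR p below 0.05 (0.0275 to 0.0399, adjusted p = 0.451 or higher). All of these were lower in KO. The share of all genes below that unadjusted p in this fit was not read. Among the 66 other genes it called Ntng1, which encodes a membrane-anchored netrin (-0.54 ± 0.10, edgeR adjusted p = 0.0195), and Mdga1, which encodes a protein that blocks neuroligins from binding neurexins (-0.62 ± 0.12, edgeR adjusted p = 0.033). Ntng1 had 27.4, 41.5 and 30.1 CPM in KO and 45.4, 58.7 and 39.6 CPM in WT cerebellum, lower in KO for each number. Mdga1 had 14.2, 19.6 and 15.6 CPM in KO and 20.6, 34.2 and 21.9 CPM in WT cerebellum, likewise. Without the block neither was called (edgeR adjusted p = 1 for both).

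Hippocampal values of the smallest p were those of Lrrtm3, Dlg1 and Nrxn3. Lrrtm3 had 5.48 and 6.91 CPM per kb in KO and 4.57 and 5.31 in WT hippocampus, with a log2 fold change of 0.33 ± 0.16 (edgeR unadjusted p = 0.0688, adjusted p = 1). Dlg1 had 12.6 and 12.6 CPM per kb in KO and 9.94 and 11.8 in WT hippocampus (0.21 ± 0.14 on the log2 scale, edgeR adjusted p = 1), and Nrxn3 had 38.3 and 37 CPM per kb in KO and 41.6 and 41.3 in WT hippocampus (-0.14 ± 0.12, edgeR adjusted p = 1). The genotypes did not overlap for these 3 genes and 6 others. Of the 9, 4 were higher and 5 lower in KO, where 36.6% of all genes did not overlap, 18.1% with KO higher and 18.6% with KO lower.

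Cortical Homer1 was the only member with an unadjusted p below 0.05. It had 27.9 and 16.4 CPM per kb in KO and 25.2 and 51.9 in WT cortex, so that WT 2 lay between the KO libraries and the difference rested on WT 3. The log2 fold change was -0.80 ± 0.33 (edgeR unadjusted p = 0.0349, adjusted p = 0.675). It was -0.19 without WT cortex 3, -0.47 without KO cortex 2, -1.22 without WT cortex 2 and -1.23 without KO cortex 1, and none of these passed (adjusted p = 0.0716 or higher). The sum of 12 activity-induced genes (among them Fos, Arc and Egr1) was also highest in WT cortex 3. This sum was 400.3 and 327 CPM in KO and 660 and 1494 CPM in WT cortex. The order of the other libraries differed, as WT cortex 2 had less Homer1 than KO cortex 1 but a higher sum. KO 1 had the lowest sum of the hippocampal libraries, and WT 2 their lowest Homer1 level. In hippocampus that sum was 294 and 335 CPM in KO and 339 and 621 CPM in WT libraries, and in cerebellum 112 to 185 CPM in KO and 134 to 238 CPM in WT libraries. All 12 genes had reads in each library, and 0 of the 12 passed the test in cortex. Arc, which encodes a spine protein induced by synaptic activity, had a log2 fold change there of -2.44 ± 0.48 (edgeR unadjusted p = 0.000483, adjusted p = 0.658). The part of these genes in the Homer1 levels was not tested.

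Next in cortex by p were Synpo and Dlg3. Synpo had 22.8 and 19.6 CPM per kb in KO and 23.9 and 25.2 in WT cortex (-0.21 ± 0.15 on the log2 scale, edgeR adjusted p = 0.71), and Dlg3 had 34.7 and 39.8 CPM per kb in KO and 36 and 30.01 in WT cortex (0.17 ± 0.12, edgeR adjusted p = 0.713). The genotypes did not overlap for 8 of the 31 genes in cortex, 1 higher (Slitrk3) and 7 lower in KO, where 27.3% of all genes did not overlap, 14% with KO higher and 13.3% with KO lower. Of the 66 other genes, the smallest p in each region was that of Nectin3 in cerebellum (-0.51 ± 0.19 on the log2 scale), Nptxr in hippocampus (-0.32 ± 0.15) and Tanc1 in cortex (0.75 ± 0.18), and 0 of the 66 passed in any region (edgeR adjusted p = 0.658 or higher). Tanc1 had 68.8 and 106 CPM in KO and 47.7 and 55.8 CPM in WT cortex, highest in KO cortex 2.

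The difference of the KO effect between regions was tested for each pair of regions, and 0 of the 31 genes passed in any, nor did any other gene tested (0%). At an unadjusted p below 0.05, cerebellum against cortex had 0 of the 31 and 1309 of all genes, hippocampus against cortex 0 and 782, and cerebellum against hippocampus 1 (Lrrtm3) and 368. The mean KO effect over the 3 regions, tested with limma, called 0 of the 31 and 0% of all genes, with 0 and 1086 at an unadjusted p below 0.05. The smallest p of the 31 there was that of Nrxn3, with a log2 fold change of -0.11 ± 0.07 (limma adjusted p = 1).

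Paralogue choice followed region in both genotypes. Of 84 combinations of a family member and a region, the mean shares of KO and WT libraries lay within 5 percentage points of each other in 82. The largest gap was that of Homer1 in cortex, with 66.4% in KO and 75.4% in WT libraries. Homer2 had the other gap over 5 points, with 30.4% in KO and 22.3% in WT cortex, and for both genes the KO and WT libraries overlapped. In cerebellum the largest gap was that of Lrfn2, with 5.97% in KO and 9.65% in WT libraries, which also overlapped. In hippocampus it was that of Lrrtm1, with 49.9% in KO and 53.6% in WT libraries, which did not overlap (48% and 51.8% against 53.8% and 53.3%). The shares of KO and WT libraries did not overlap in 16 of the 84 combinations. For levels of single genes, 9.3% of all genes did not overlap in cerebellum, 36.6% in hippocampus and 27.3% in cortex. The like figure for shares over other gene families was not taken. Shares of a family are tied to each other, and the differences between genotypes are descriptions with no test.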

How the data were processed

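Total RNA of 14 libraries was extracted with TRIzol and treated with DNase, per the labels' protocols. The authors deposited 1 table of whole-number read counts per gene that were not normalized. Per the submitters' processing notes, the tools were Trim Galore 0.6.4, cutadapt 2.10, STAR 2.7.3a and featureCounts 2.0.1, with GRCm38.p6 (mm10). The sources used here do not give strandedness, the treatment of multimapping reads or the annotation release. Symbols, coordinates and exon lengths came from GENCODE M21 (GRCm38), which matched 48058 of 48440 identifiers without version (40606 with it).

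Counts were scaled by TMM and tested with edgeR 4.0.16 (R 4.3.3, robust quasi-likelihood) in 1 fit of 6 groups over all 14 libraries. filterByExpr left 24680 genes (coefficient of variation between libraries 24.7%, with 8 residual degrees of freedom). Region differences average both genotypes. The mean KO effect used limma 3.58.1 (voom) with genotype and number as a random block (correlation 0.096). P-values are Benjamini-Hochberg adjusted over all genes tested, with a threshold of 0.05. The scripts were tested on simulated data.

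Family shares divide reads by merged exon length and are taken only over family members among the genes of this report. Per-library values were given for the 3 members with the smallest KO p per region, and per family for the member with the largest called difference between cerebellum and cortex and those with the highest level in either. Some further members are also shown by library, chosen after their values were seen. Of the other genes, the rule named the 3 with the largest called change per direction at a log2 CPM of at least 1, of which 1 gene is not reported here. The members and lists were chosen with earlier results of these data known. Alternatives were DESeq2 1.42.0, other scalings, filters, fits per region or genotype, replicate blocks and leaving out each library. Correlations of deviations from the group mean (16936 genes) between same-numbered KO and WT cerebellar libraries were 0.32, 0.794 and 0.403. Between same-numbered libraries of cerebellum and cortex they were 0.173 to 0.432, of hippocampus and cortex 0.176 to 0.247, and of cerebellum and hippocampus -0.094 to 0.194. All values of the first 3 sets were above the bound of 0.1 set for pairs. With 2 libraries per group, deviations from the group mean are exact opposites. Hippocampus and cortex therefore give the same value for both numbers (0.247 in KO, 0.176 in WT), and that set cannot establish pairs. In cerebellum KO 1 with WT 3 (0.382) and KO 3 with WT 1 (0.501) correlated more highly than the same-numbered libraries 1 (0.32) and 3 (0.403). The check therefore does not bear out pairs for numbers 1 and 3 there. Protein sequences were not used here.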

Additional observations from a re-analysis of the deposited data

Results flagged for a closer look

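In 9 of 93 sets of libraries (31 genes in 3 regions, both genotypes together), 1 library lay far from the others, where chance gives about 1 in 20. Of the 9, 3 concern WT cerebellum 2. Dlg1, a membrane-near scaffold, had 163 CPM there, against 199.8 to 212 CPM in the other cerebellar libraries. Lrrtm1 had 14.1 CPM there, against 6.80 to 9.33 CPM, and Lrrtm4 had 7.99 CPM, against 2.69 to 3.94 CPM. The Rasgrf2 and Lamp5 levels of that library stand in the report.

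KO cortex 2, the library with striatal, thalamic and choroid plexus markers, gave 2 more. Dlgap1 had 623 CPM there, against 808 to 844 CPM in the other cortical libraries, and Lrrtm1 had 55.1 CPM, against 36.9 to 38.8 CPM. In WT cortex 2, the library with 198 CPM of meningeal markers, Dlgap3 had 412 CPM, against 381 to 385 CPM, and Lrfn2 had 24.9 CPM, against 28.0 to 28.4 CPM. Dlg3 had 91.9 CPM in WT cerebellum 3, against 82.2 to 84.9 CPM. Synpo, the spine apparatus gene, had 192 CPM in WT hippocampus 3, against 170.0 to 172 CPM. The part of the marker levels in these values was not tested.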

How the results depend on the processing

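No direction of the called members' values reversed under any alternative run. Over all alternatives, values of members kept direction and call in 608 cases and lost the call in 8 for cerebellum over cortex, in 173 and 16 for hippocampus over cortex, and in 566 and 6 for cerebellum over hippocampus. Counts of members called in any comparison of genotypes were 0 throughout. For hippocampus over cortex, WT libraries alone called 5 members and 1368 genes, and KO libraries alone 5 and 930. The calls of Nrxn2, Lrrtm1 and Lrfn1 were lost in both of these settings. That of Homer2 was lost with WT libraries alone and that of Slitrk1 with KO libraries alone. WT libraries alone called 7567 genes for cerebellum over cortex and 7604 for cerebellum over hippocampus.

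Counts of all genes called between genotypes, 0 in the report, were in cerebellum 2 with DESeq2 and 3 with library quality weights (limma), and in hippocampus 2 and 3, and 7 with that region's libraries alone. In cortex they were 34 with DESeq2 and 1 without the low-count filter, and for hippocampus against cortex DESeq2 gave 4. The mean effect gave 1 gene with edgeR and no replicate block and 3 without the filter. Numbers were treated as pairs in cerebellum, which the check given under processing does not bear out for numbers 1 and 3. The replicate block called 104 genes there and 0 members. Between regions the block called 28 members for cerebellum over cortex, 11 for hippocampus over cortex and 26 for cerebellum over hippocampus, and of the calls in the report it lost that of Nrxn3. Cortex and hippocampus share only number 2 between genotypes, so no paired fit was made there.

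Leaving out 1 library at a time gave 27 to 28 members and 10150 to 13226 genes for cerebellum over cortex, 7 to 13 and 1541 to 4143 for hippocampus over cortex, and 25 to 29 and 9677 to 13034 for cerebellum over hippocampus. The lowest count, 1541, came without KO hippocampus 1. Between genotypes it gave 0 to 1 gene in cerebellum, 0 in hippocampus, 0 to 3005 in cortex and 0 to 78 for the mean, and 0 to 1551, 0 to 760 and 0 to 0 for the KO effect of cerebellum against cortex, hippocampus against cortex and cerebellum against hippocampus. The counts of 3005, 78, 1551 and 760 came without KO cortex 1, which leaves KO cortex 2 alone. The causes of these changes were not tested. Gene counts of Lrfn2 in cerebellum, 4 to 23 reads in 4 libraries, limit its precision.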
